A study of Mus musculus with 9 samples.

Results

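The potassium channel genes of the mouse were followed through neuronal nuclei of the hippocampus in 3 groups of mice. A gene was taken as a member when its symbol consisted of Kcn, further letters and a closing number and nothing more, which gave 92 of the 48709 listed genes (48349 of which could be given a symbol). The members lay on 19 chromosomes and were sorted by symbol into 16 subfamilies. Of these genes, 76 had enough counts to be tested, 12 were counted but too low to be tested, and for 4 no count was found in any of the 9 libraries.

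The study compared WT and Tg4-42 mice and asked whether long-term caffeine alters neuronal gene expression in the transgenic mice. The groups were 3 vehicle-treated WT mice, 3 vehicle-treated Tg4-42 mice and 3 caffeine-treated Tg4-42 mice, all on a C57BL/6J background and 6 months old at the end of treatment. Caffeine was given at 300 mg/l in the drinking water for 4 months from 2 months of age, and vehicle-treated mice received plain water. Tg4-42 mice were homozygous for a transgene in which the murine Thy1 promoter drives human Aβ4-42 behind the signal peptide of murine thyrotropin-releasing hormone, so the peptide is made in neurons. No caffeine-treated WT mice were among the 9 libraries, so the effect of caffeine was compared within Tg4-42 mice only. For the sorted nuclei, the labels speak of 6 mice in a group whereas the methods speak of 3. Each library was treated as 1 mouse, and p-values measure the spread between these libraries.

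Potassium channels let potassium leave the cell and so bring a neuron back to rest after it has fired. Voltage-gated Kv subunits open on depolarization and shape the action potential, calcium- and sodium-activated subunits open after firing, and inward rectifiers and two-pore-domain (K2P) subunits hold the resting potential. Auxiliary subunits (Kv beta, KChIP, MinK-related and BK beta proteins) form no pore but set the gating and surface density of the pores they bind.

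Between 9342945 and 16376922 reads per library were counted on exons, and 3 counts, the smallest amount taken as detected, corresponded to 0.1895 to 0.325 CPM (counts of a gene relative to its library's total, scaled by TMM), a floor that covers counting error only. Neuronal markers (Rbfox3, Snap25, Syt1 and Map2) summed to 5061 to 7601 CPM, against 252.9 to 507.9 CPM for 6 oligodendrocyte, 69.1 to 122 CPM for 6 astrocyte and 17.4 to 31.6 CPM for 5 microglia markers. Although the series describes CA neurons, markers of dentate granule cells were present in every library (394.9 to 1158 CPM). Thy1, whose promoter the transgene carries, lay between 82.1 and 88.8 CPM in WT and between 460.7 and 670.1 CPM in both Tg4-42 groups. Replicate 3 of every group was sequenced on lane 7 and the others on lane 6, so lane and replicate 3 cannot be told apart. Reads were counted without regard to strand, and exons of 25 members overlap another listed gene.

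What sets pore-forming members apart from the auxiliary ones is the selectivity filter, the stretch of the pore that strips and passes potassium ions. It was searched in the longest coding sequence of each gene as 5 residues in a row (threonine or serine, then valine, isoleucine, leucine or threonine, then glycine, then tyrosine, phenylalanine or leucine, then glycine). It was present in all 77 pore-forming or modifier members and in 0 of 15 auxiliary members, against 1.62% of 21365 coding genes. All 14 K2P members had 2 copies and no member outside the K2P subfamily had more than 1. The allowed residues include variants found in Kcnk1, such as leucine before the closing glycine. These counts thus describe the members and do not test the pattern. Some pore-forming or modifier members named in the comparisons are shown with the 15 filter bases in capitals and 6 coding bases on either side (coding strand, GENCODE M21 on GRCm38, which is mm10). Kcnk1 is shown for its high level and its 2 copies.
Kcna6 (Kv1, chr6:126738641-126738667, minus strand): atgaccACGGTAGGTTATGGGgacatg
Kcnc1 (Kv3, chr7:46427967-46427993, plus strand): atgacgACACTGGGCTATGGAgacatg
Kcnc2 (Kv3, chr10:112456223-112456249, plus strand): atgactACCTTAGGTTACGGGgatatg
Kcnq3 (Kv7, chr15:66023725-66023751, minus strand): ctggccACCATTGGTTATGGAgacaag
Kcnh7 (ERG, chr2:62777337-62777363, minus strand): ctaaccAGTGTAGGATTTGGAaatgtg
Kcnf1 (modifier Kv, chr12:17175055-17175081, minus strand): atgaccACAGTGGGCTATGGTgacatc
Kcnma1 (BK pore, chr14:23528407-23528433, minus strand): atgtctACAGTGGGTTATGGGgacgtt
Kcnj6 (Kir, chr16:94832771-94832797, minus strand): gaaaccACCATCGGTTATGGCtaccgg
Kcnk1, first pore (K2P, chr8:125995802-126025025, plus strand, split by an intron): ctctccACCACAGGCTATGGCcacacg
Kcnk1, second pore (K2P, chr8:126025323-126025349, plus strand): ctgagcACCATCGGCCTGGGGgactat

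To compare genes with each other, levels were divided by the length of their exons. Of the 92 members, 28 reached a mean of 10 CPM per kb or more over the 9 libraries, 60 reached 1, and 32 stayed below 1. Kcnk1, a K2P subunit of the resting conductance, had the highest level with 85.3 CPM per kb and a range of 61.4 to 99.8 over the 9 libraries. It was followed by Kcnj9 (GIRK3, a G protein-gated inward rectifier) with 50.2 CPM per kb and a range of 40.8 to 69.3, which overlaps the range of Kcnk1. Both calcium-binding Kv4 partners Kcnip2 (40.9) and Kcnip3 (40.05 CPM per kb) came next, with ranges of 29.6 to 57.9 and 29.3 to 50.5 that cannot be ordered.

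Further down this order, Kcnab2 (a Kv beta subunit, 35.0 CPM per kb), Kcnj3 (GIRK1, 33.9), Kcna1 (Kv1.1, 32.6), Kcnn2 (the calcium-activated SK2, 32.3) and Kcnd2 (Kv4.2, the A-type channel of pyramidal cell dendrites, 31.3) had overlapping ranges. Kcnf1 (29.2) and Kcnv1 (28.45 CPM per kb), which are silent alone and modify Kv2 channels, varied more than these, from 16.8 to 49.25 and from 16.5 to 42.6 CPM per kb. Of the exon bases of Kcnj3, 31.1% overlap the antisense gene Gm26794 (1.81 to 3.77 CPM over the 9 libraries), whose part in its reads was not tested. The order depended in part on the length used. With the longest single transcript in place of all exons, 19 of the 20 highest members were the same, but Kcnn2 moved to 65.4 and Kcnj6 from 13.1 to 27.6 CPM per kb.

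Among the subfamilies, the 15 inward rectifiers held 15.2% of the summed level per kb, the 4 KChIPs 12.1%, the 14 K2P subunits 11.3%, the 8 Kv1 subunits 11.1% and the 10 modifier subunits 10.7%. The other pore subfamilies were smaller, from 5.73% for Kv3 over 5.13% for Kv4 and 4.21% for Kv7 to 1.44% for the BK pore gene Kcnma1. Their order depended on the length used, since with the longest transcript SK/IK summed to 71.5 and Kv7 to 62.0 CPM per kb, against 62.4 for Kv3 and 49.5 for Kv4. Within the K2P subfamily most of the level was carried by 1 gene. Kcnk1 alone had 85.3 CPM per kb, whereas the next K2P member Kcnk2 (TREK-1) had 5.02.

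**Figure D1:**
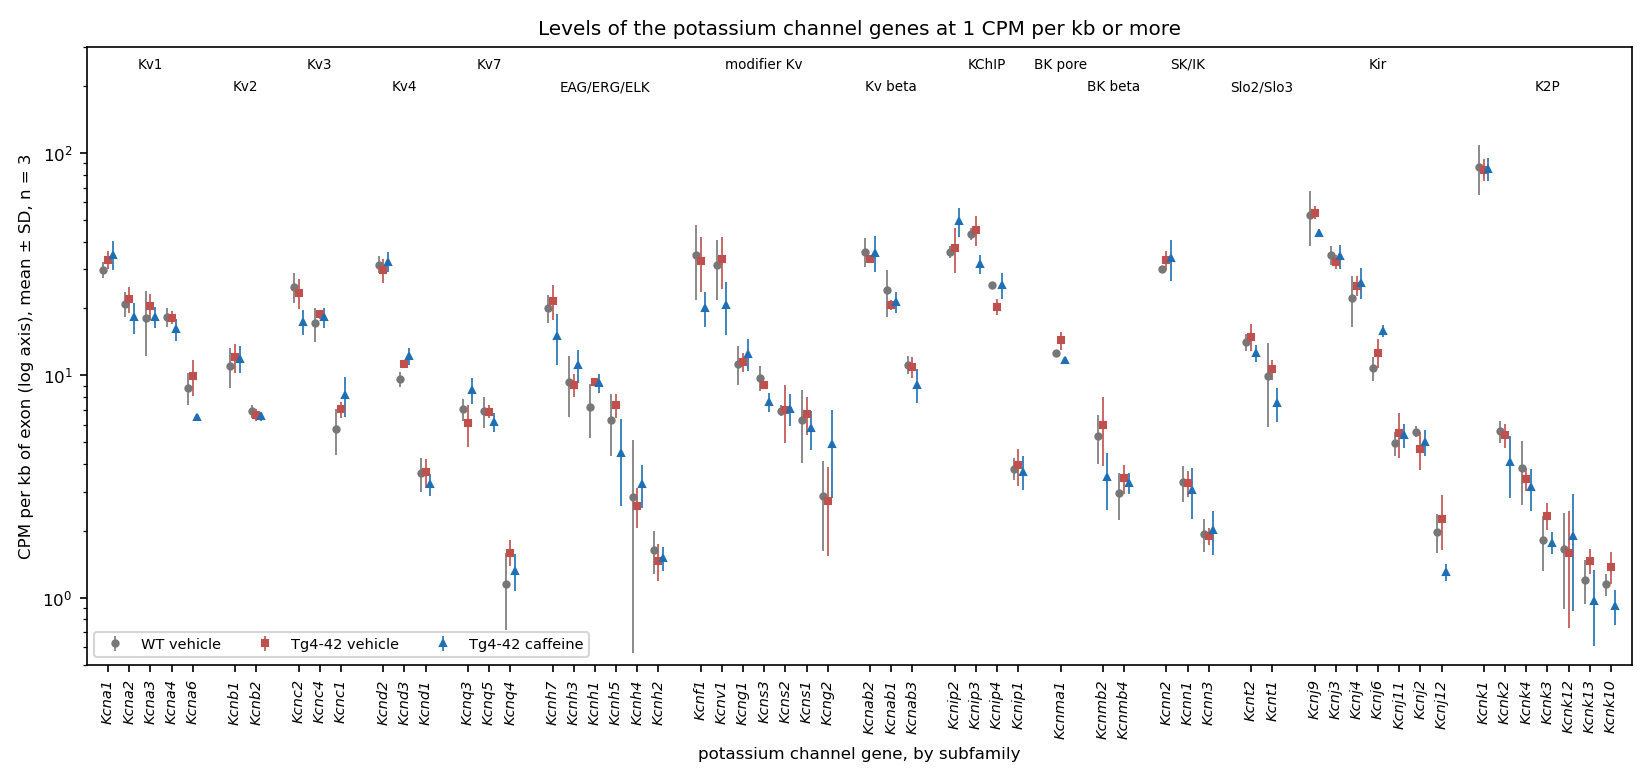
Levels of the members reported here with at least 1 CPM per kb of exon, by subfamily, on a log axis, as mean ± SD of 3 libraries per group. Kcnk1 stood highest with 85.3 CPM per kb over the 9 libraries, followed by Kcnj9 with 50.2.

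Several low members are usually found in other cell types. Kcnj10 (Kir4.1), the main inward rectifier of astrocytes, lay between 0.834 and 2.21 CPM over all 9 libraries. Kcnj8, found in pericytes, and Kcnn4, found in blood and immune cells, did not pass the filter. Kcnj1, Kcnj15, Kcnk5 and Kcnk16, which are known mainly from kidney, pancreas and other epithelia, had no count in any library, which allows up to 0.325 CPM in the least deeply sequenced one. The 12 members that had counts but were not tested (Kcna7, Kcna10, Kcne1, Kcne3, Kcnj8, Kcnk7, Kcnk15, Kcnk18, Kcnmb1, Kcnn4, Kcnq1 and Kcnv2) had at most 11 counts in a library and at most 50 in all.

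The summed level of the modifier subunits was 104.2 ± 22.9 CPM per kb in vehicle-treated WT, 104.1 ± 17.5 in vehicle-treated Tg4-42 and 79.5 ± 5.63 in caffeine-treated Tg4-42 mice (mean ± SD, n = 3 each). Kv7 subunits summed to 36.0 ± 3.01, 36.4 ± 1.55 and 40.4 ± 1.47 CPM per kb in the same order. The sums of the inward rectifiers (135.3 ± 18.6, 139.2 ± 2.52 and 133.2 ± 9.12) and of the KChIPs (108.3 ± 5.50, 106.8 ± 1.07 and 110.3 ± 8.42 CPM per kb) differed between groups by less than the largest of their SDs. Between both groups of Tg4-42 mice, the widest gaps relative to the sum of both SDs were those of the Slo2/Slo3 subunits (26.6 ± 2.29 against 20.8 ± 1.58) and of the BK pore (14.4 ± 1.36 against 11.7 ± 0.280 CPM per kb).

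**Figure D2:**
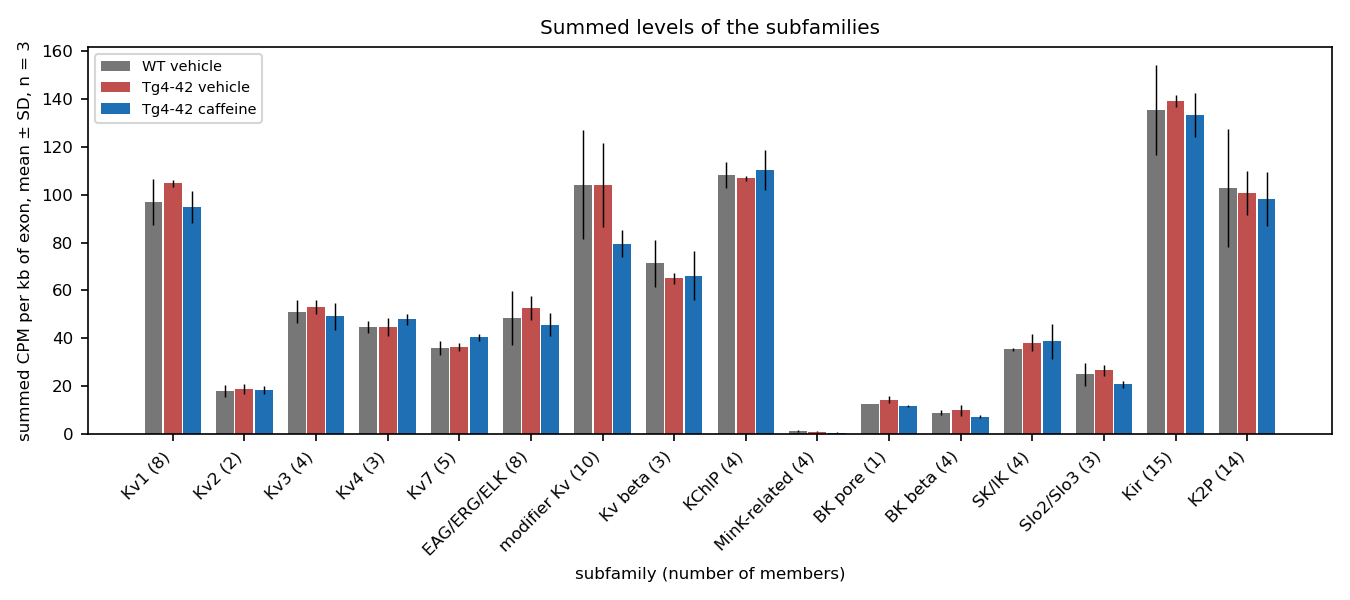
Summed level per kb of exon of each subfamily in the 3 groups (bars, mean; lines, SD; n = 3), with the number of members in brackets. Modifier subunits stood at 79.5 CPM per kb with caffeine against 104.1 with vehicle in Tg4-42 mice, and KChIPs at 110.3 against 106.8.

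The comparison of vehicle-treated Tg4-42 with vehicle-treated WT mice asked whether the transgene is accompanied by other levels of channel genes. None of the 76 tested members passed edgeR's quasi-likelihood test with Benjamini-Hochberg adjustment at 0.05 (0.0979% of 17361 genes did), and their smallest adjusted p was 1.00. DESeq2 also called 0 members (background 0.102%). At an unadjusted p under 0.05, 1 member was higher (1.65% of all tested genes were) and 1 was lower (1.09%), which is 1.32% of the members each. A log2 fold change above 0 was found for 46 members (60.5%, against 50.5% of all genes tested). The median of the members was 0.05, against 0.00 for all genes tested.

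Kcnip4 (KChIP4), which slows the inactivation of Kv4 channels, was the lower of these members. It stood at 91.4, 96.0 and 89.1 CPM in WT and at 68.1, 73.6 and 80.2 CPM in Tg4-42 mice. All Tg4-42 values lay below all WT values, with a log2 fold change of -0.32 ± 0.13 (SE; unadjusted p = 0.0222, adjusted p = 1.00, edgeR). With caffeine its level was 103.0, 78.5 and 94.8 CPM, a range that overlaps both other groups.

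Kcnh1 (EAG1), a slow voltage-gated subunit, was the higher of them. It was at 41.3, 48.4 and 68.8 CPM in WT and at 69.3, 70.0 and 65.9 CPM in Tg4-42 mice, where WT replicate 3 reached into the Tg4-42 range. The log2 fold change was 0.37 ± 0.16 (unadjusted p = 0.0334, adjusted p = 1.00, edgeR).

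Groups did not overlap for 3 members that were higher in Tg4-42 mice (3.57% of all genes) and for 2 that were lower (3.16%). Besides Kcnip4 these were Kcnd3, Kcnma1 and Kcnn2 (higher) and Kcnh6 (lower), with log2 fold changes of 0.24, 0.19, 0.13 and -0.32. Kcnma1, the BK pore that ends the action potential when calcium enters, was at 211.5, 212.6 and 216.9 CPM in WT and at 260.8, 217.5 and 253.4 CPM in Tg4-42 mice. The gap between the groups was thus less than 1 CPM (216.9 against 217.5). Without WT replicate 3, 10 members had an unadjusted p under 0.05 in place of 2 (4.90% of all genes), 8 of them higher, and 0 were called. Without WT replicate 1 or WT replicate 2 the number was 1.

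Caffeine was compared with vehicle within Tg4-42 mice to ask whether it changes channel gene levels. Here too 0 of 76 members were called by edgeR, while 153 genes were called in all (0.881%), 37 of them higher and 116 lower. The members leaned to lower values: 48 had a log2 fold change below 0 (63.2%, against 51.5% of all genes tested). Their median was -0.15 against -0.01 for all genes. In the comparison with WT above, which shares the vehicle-treated Tg4-42 libraries, 60.5% of the members had leaned to higher values. With caffeine, the median was -0.07 for the 59 members with a mean count of at least 50. At an unadjusted p under 0.05, 14 members were lower (18.4%, against a background of 9.82%) and 5 were higher (6.58%, against 7.15%). Groups did not overlap for 14 members that were lower (background 12.6%) and for 2 that were higher (background 10.4%). DESeq2 called Kcna6 and Kcnip3, 2 of the 66 members to which it gave an adjusted p (3.03%, below the background of 5.12%). The 153 genes called by edgeR became 9 with lane as a covariate, 0 without Tg4-42 vehicle replicate 3 or caffeine replicate 3, and 341 without caffeine replicate 1.

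These counts depended on single mice. Without Tg4-42 vehicle replicate 3, the members at an unadjusted p under 0.05 went from 19 to 7 (5 lower), and without caffeine replicate 3 to 10 (9 lower), beside 10.5% and 9.24% of all genes. Within lane 6, which holds replicates 1 and 2 of each group, 5 members were below that p (4 lower), beside 5.46% of all genes.

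**Figure D3:**
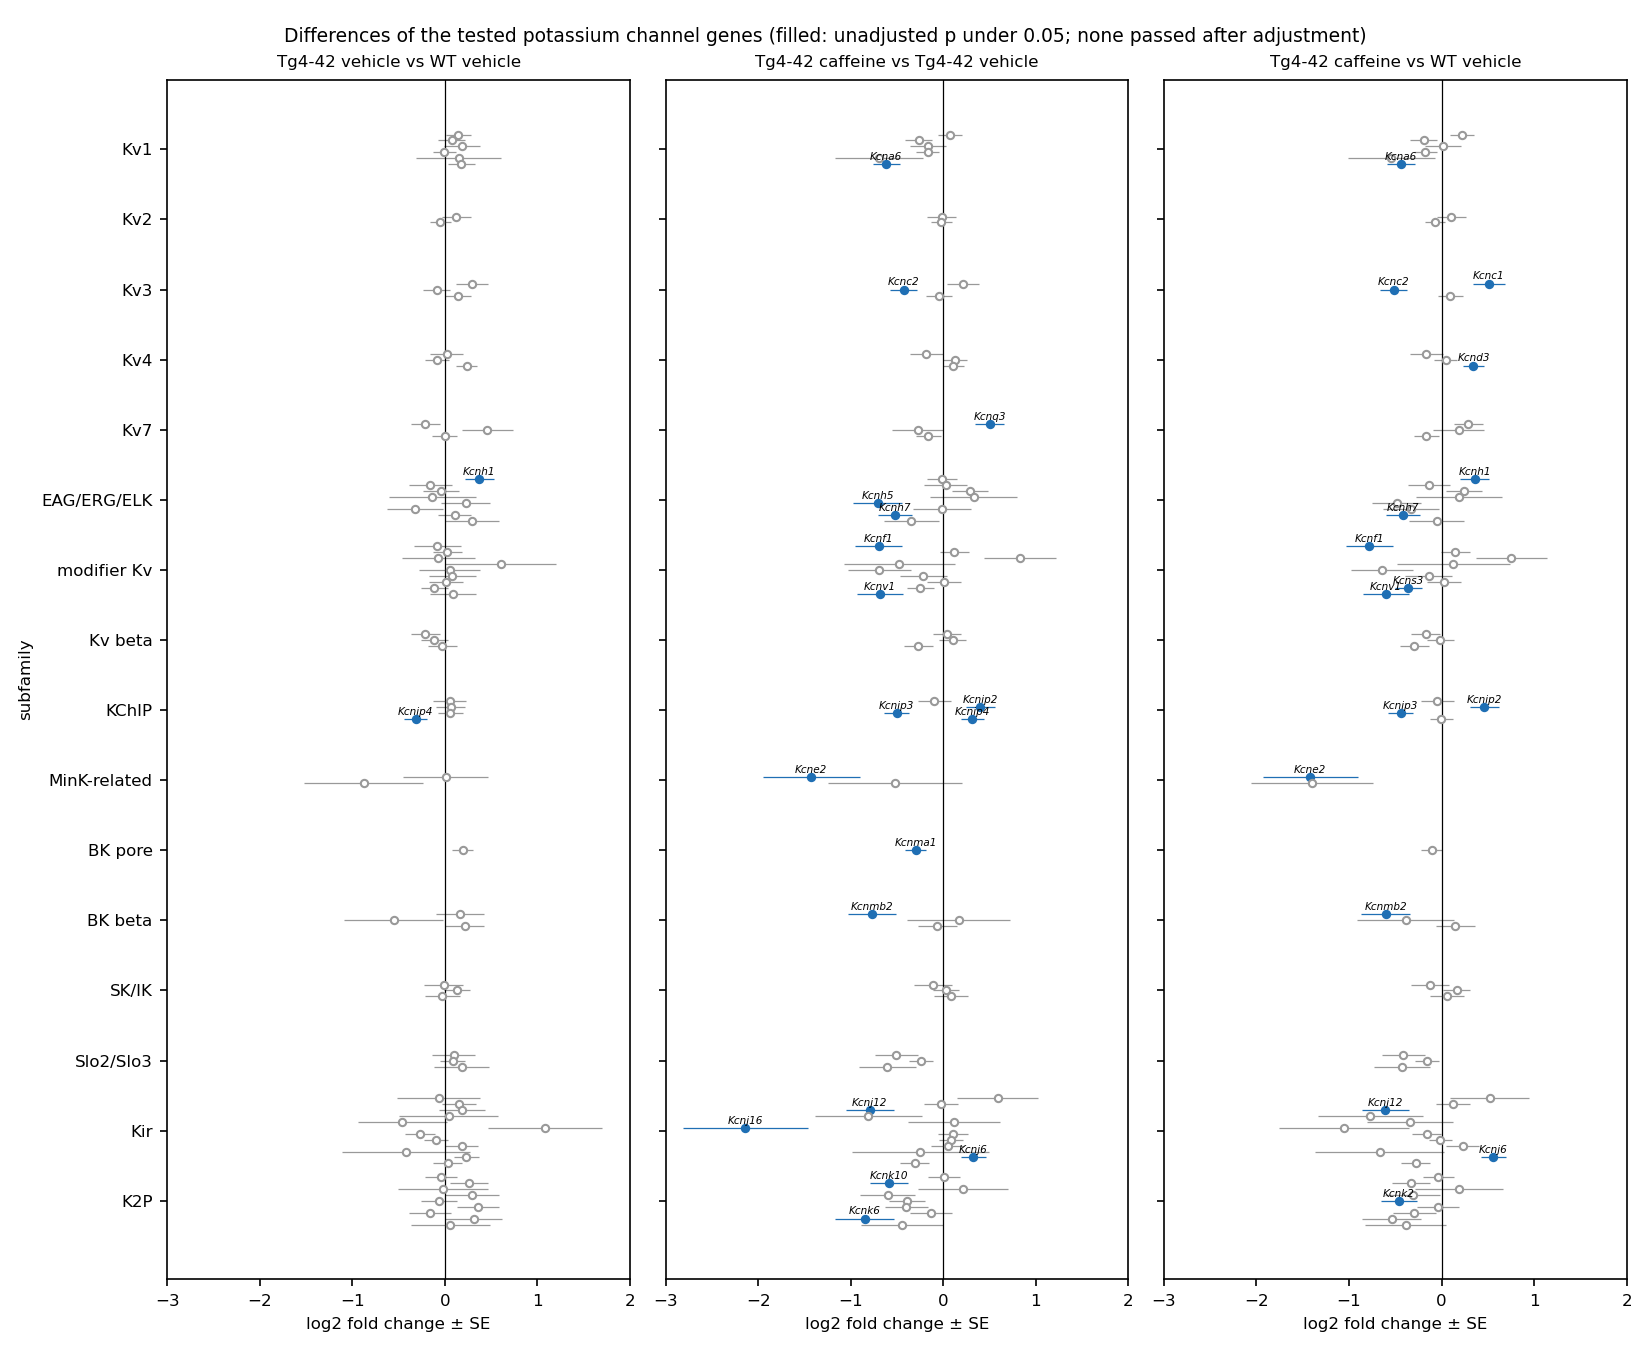
Log2 fold change ± SE of the tested members reported here in the 3 comparisons, by subfamily, with filled, named points for an unadjusted p under 0.05. In both comparisons with caffeine more filled points lie left of 0 (14 and 11) than right of it, and the left panel has 1 on each side.

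Kcna6 (Kv1.6), a delayed rectifier subunit of axons and interneurons, had the smallest p. It was at 51.7, 53.9 and 71.2 CPM with vehicle and at 38.2, 38.0 and 39.4 CPM with caffeine, whereas WT mice had 46.4, 47.9 and 62.0 CPM. All caffeine values lay below the values of both other groups. The log2 fold change was -0.62 ± 0.15 (adjusted p = 0.0649, edgeR), and DESeq2 gave an adjusted p of 0.0131. The adjusted p of Kcna6 ranged from 0.00559 to 0.828 over 13 alternatives, with the log2 fold change always below 0 (-0.70 to -0.44). Without Tg4-42 vehicle replicate 3 it was -0.44 (adjusted p = 0.361). Of its exon bases, 39.6% overlap the antisense gene Gm26673, and reads of both cannot be told apart without strand. Gm26673 itself was counted at 0.325 to 1.02 CPM over the 9 libraries, and its part in the reads of Kcna6 was not tested.

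The other Kv1 genes had adjusted p above that of Kcna6. Kcna1, which keeps axons from firing repeatedly, was at 160.0, 172.2 and 142.5 CPM with vehicle and 165.1, 142.4 and 192.2 CPM with caffeine (log2 fold change 0.07 ± 0.13). Kcna2 (Kv1.2) had 284.3, 222.4 and 281.0 CPM with vehicle and 258.5, 200.7 and 195.9 CPM with caffeine, which overlap (-0.27 ± 0.15, adjusted p = 0.380, edgeR). For Kcna4 the log2 fold change was -0.17 ± 0.13, and for the scarcer Kcna5 it was -0.69 ± 0.48.

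Kv3 subunits, which allow rapid firing, lay on both sides of 0. Kcnc2 (Kv3.2), used by fast-spiking and somatostatin interneurons, was at 154.1, 151.0 and 198.1 CPM with vehicle and 107.0, 138.3 and 128.6 CPM with caffeine. Its groups did not overlap (-0.43 ± 0.15, adjusted p = 0.164, edgeR). Kcnc1 (Kv3.1) had a log2 fold change of 0.22 ± 0.17 and Kcnc4 of -0.05 ± 0.14. The difference between members of the subfamily was not tested.

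KChIPs also lay on both sides. Kcnip3 (KChIP3, also known as DREAM or calsenilin, a calcium-binding protein that also acts on transcription and binds presenilins) was at 169.5, 131.4 and 178.9 CPM with vehicle and at 125.0, 104.0 and 109.4 CPM with caffeine. No caffeine value reached the vehicle range or that of WT (142.0 to 159.9 CPM). Its log2 fold change was -0.50 ± 0.13 (adjusted p = 0.0856, edgeR), with an adjusted p of 0.0203 by DESeq2 and of 0.380 without Tg4-42 vehicle replicate 3.

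Kcnip2 (KChIP2) was at 125.8, 161.5 and 102.8 CPM with vehicle and 153.6, 160.1 and 201.1 CPM with caffeine (0.40 ± 0.16, adjusted p = 0.206, edgeR), with 1 vehicle value inside the caffeine range. Kcnip4 had 0.32 ± 0.13. Kcnip1, the KChIP of many interneurons, had -0.10 ± 0.18. The Kv4 pores that KChIPs bind differed little, with 0.12 ± 0.13 for Kcnd2 and 0.11 ± 0.11 for Kcnd3.

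Kcnq3 is a subunit of the M-channel that muscarinic receptors close. It stood at 111.6, 76.1 and 80.5 CPM with vehicle and 137.8, 106.5 and 134.4 CPM with caffeine, and vehicle replicate 1 lay above the lowest caffeine value (0.50 ± 0.16, adjusted p = 0.123, edgeR). Kcnq5, of the same subfamily, had -0.16 ± 0.14.

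Of the EAG, ERG and ELK subunits, Kcnh7 (ERG3), which limits firing at a steady stimulus, was at 350.1, 261.6 and 375.0 CPM with vehicle and 295.2, 212.1 and 180.7 CPM with caffeine. Caffeine replicate 1 lay inside the vehicle range (-0.52 ± 0.18, adjusted p = 0.166, edgeR). Without that replicate Kcnh7 and Kcnh5 (EAG2) were called, which is 2 of 76 members beside 341 of 17696 genes. Kcnh3 had 0.29 ± 0.20.

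Modifier subunits Kcnf1 and Kcnv1 varied widely between mice. Kcnf1 was at 140.4, 123.8 and 205.9 CPM with vehicle, 114.9, 94.2 and 80.5 CPM with caffeine and 123.3, 138.7 and 235.9 CPM in WT. Caffeine values lay below those of both other groups, and replicate 3 of WT and of vehicle-treated Tg4-42 mice stood far above its 2 companions. The log2 fold change was -0.70 ± 0.26 (adjusted p = 0.199, edgeR) and was -0.32 within lane 6 and -0.44 without vehicle replicate 3. Kcnv1 showed the same high replicates (193.3 CPM in WT replicate 3 and 195.5 in vehicle replicate 3) and had -0.69 ± 0.25 (adjusted p = 0.199, edgeR), with groups that overlapped.

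Among the calcium- and sodium-activated members, Kcnma1 was at 202.9, 193.5 and 199.3 CPM with caffeine, below all vehicle values and also below all WT values given above (-0.30 ± 0.11, adjusted p = 0.197, edgeR). Kcnmb2, a BK beta subunit that inactivates the channel, was at 16.0, 14.1 and 25.9 CPM with vehicle and 8.45, 14.4 and 9.84 CPM with caffeine (-0.77 ± 0.26, adjusted p = 0.155, edgeR). Kcnn2, whose current follows bursts of spikes, ranged from 232.0 to 273.4 CPM with vehicle and from 199.9 to 305.0 CPM with caffeine (0.03 ± 0.14). The 3 Slo2/Slo3 genes had fold changes below 0, with -0.24 ± 0.13 for the sodium-activated Kcnt2.

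Kcnj6 (GIRK2) is a pore of the G protein-gated channels through which adenosine A1 and GABA B receptors inhibit neurons, and caffeine blocks adenosine receptors. It was at 103.7, 105.8 and 80.3 CPM with vehicle and at 113.1, 121.5 and 128.5 CPM with caffeine. Groups did not overlap (0.33 ± 0.14, adjusted p = 0.235, edgeR). Its partners differed in sign, with 0.08 ± 0.13 for Kcnj3 and -0.31 ± 0.16 for Kcnj9, which was at 214.5, 234.5 and 245.7 CPM with vehicle and 196.0, 181.6 and 183.6 CPM with caffeine without overlap (adjusted p = 0.344, edgeR). Their ratios were not tested.

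Low inward rectifiers rested on few reads. Kcnj12 (Kir2.2) was at 5.41, 5.07 and 8.19 CPM with vehicle and 3.53, 3.32 and 3.92 CPM with caffeine, without overlap (-0.79 ± 0.26, adjusted p = 0.137, edgeR). Kcnj16 had the lowest log2 fold change of all members (-2.14 ± 0.68, adjusted p = 0.136, edgeR), with 5.86 CPM in vehicle replicate 3 against 0.346 to 2.33 CPM in the 8 other libraries. Without that library it was -1.11 (adjusted p = 0.563).

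K2P genes had 7 of 9 fold changes below 0 and a median of -0.40. The abundant Kcnk1 lay between 172.7 and 213.0 CPM with vehicle and between 163.2 and 205.8 CPM with caffeine, which overlap (0.01 ± 0.17). Kcnk10 (TREK-2) was at 13.6, 12.8 and 9.80 CPM with vehicle and 9.48, 8.02 and 6.61 CPM with caffeine, without overlap (-0.59 ± 0.21, adjusted p = 0.168, edgeR). Kcnk3 (TASK-1) had -0.40 ± 0.23. The MinK-related Kcne2, also a choroid plexus gene, was at or near the floor with caffeine (0.22, 0.207 and 0.692 CPM) and at 1.08, 0.834 and 1.12 CPM with vehicle.

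**Figure D4:**
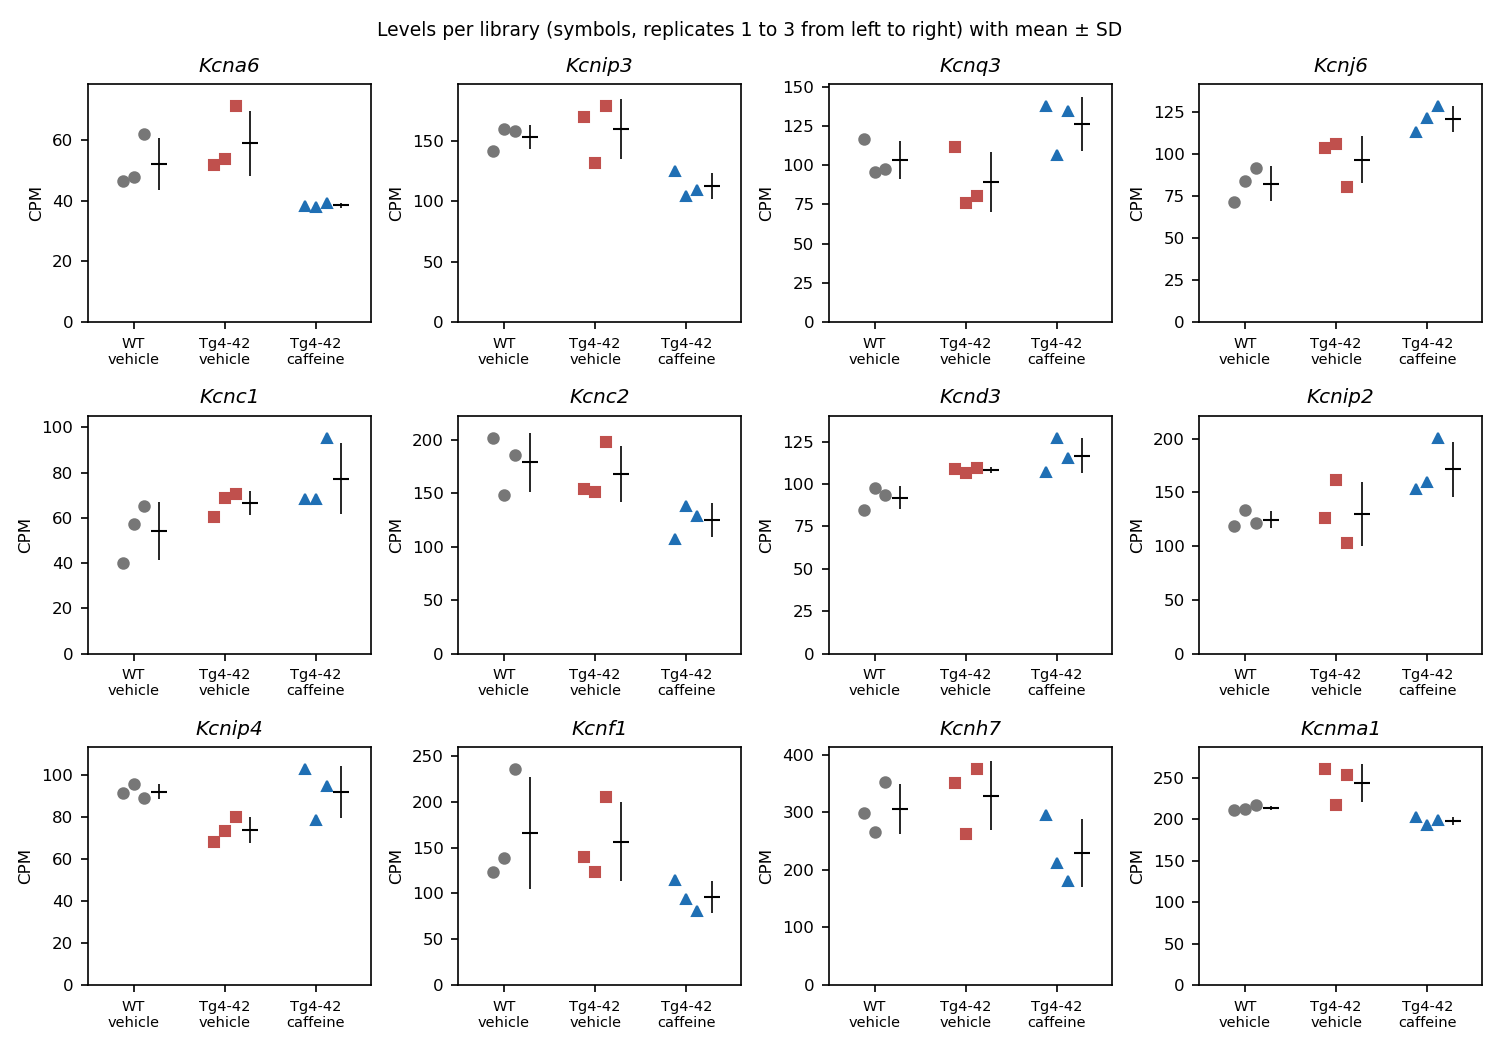
Levels of 12 members in each library (symbols, CPM) with mean ± SD (black) for WT vehicle, Tg4-42 vehicle and Tg4-42 caffeine. Kcna6, Kcnip3, Kcnc2, Kcnf1 and Kcnma1 lie lowest with caffeine without overlap (Kcna6 at 38.0 to 39.4 CPM), and Kcnj6 highest without overlap.

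Markers of cell types moved in the same comparison. All 10 dentate granule cell markers had positive fold changes with caffeine (2 called) and summed to 862.9 to 1158 CPM, against 394.9 to 768.5 CPM with vehicle and 530.2 to 717.1 CPM in WT. Their list holds Prox1 and Dsp, which the study had already reported as higher with caffeine in these data, so it was not independent of them. Neither was called by edgeR here. All 10 interneuron markers had negative ones (1 called), with sums of 1130 to 1334 CPM against 1421 to 2112 CPM with vehicle and 1362 to 1726 CPM in WT. Among vehicle-treated Tg4-42 mice, replicate 3 had the highest Kcna6, Kcnip3, Kcnf1, Kcnv1, Kcnmb2, Kcnc2, Kcnh7, Kcnh5, Kcnj12, Kcnj16 and Kcne2. It had the highest interneuron sum (2112 CPM) and the lowest dentate sum (394.9 CPM). This mouse also had the highest sums for subiculum and neocortex (243.3 CPM), oligodendrocytes (507.9) and choroid plexus (141.1 CPM). Within its group, all 14 members lower with caffeine (unadjusted p under 0.05, edgeR) were highest in it except Kcnk10, Kcnk6 and Kcnma1. Among vehicle-treated Tg4-42 mice, Kcnk10 was lowest in it (9.80 CPM) and Kcnma1 was highest in replicate 1 (260.8 CPM). Kcnk6 was nearly level (3.25, 3.27 and 3.21 CPM).

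Of the CA1 markers, 6 of 7 were negative (422.2 to 613.4 CPM with caffeine, 597.9 to 714.7 with vehicle, 538.6 to 870.8 in WT). Of the CA3 markers, 5 of 7 were positive (155.4 to 206.0, 153.8 to 204.5 and 133.5 to 196.0 CPM). Among the latter, Cdh24 was at 6.32 to 10.9 CPM with caffeine, 6.74 to 7.14 with vehicle and 1.45 to 1.57 in WT. It was called against WT both with vehicle (adjusted p = 0.000534, edgeR) and with caffeine (adjusted p = 8.44e-05, edgeR). All 8 markers of subiculum and neocortex were negative (124.5 to 173.9 CPM with caffeine, 197.2 to 243.3 with vehicle, 164.5 to 224.6 in WT). So were all 6 of oligodendrocytes (252.9 to 362.2, 361.7 to 507.9 and 326.3 to 481.3 CPM), 5 of 6 of astrocytes, all 5 of microglia and all 4 tested ones of the choroid plexus, whose 6 genes summed to 5.29 to 50.2 CPM with caffeine and 8.98 to 141.1 CPM with vehicle. No marker on these lists was at 0 in all libraries. The lists of subiculum and neocortex and of choroid plexus were added after seeing the data. In bulk nuclei, fewer cells of a type and less RNA per cell cannot be told apart, and the part of these shifts in the values of the channel genes was not tested.

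**Figure D5:**
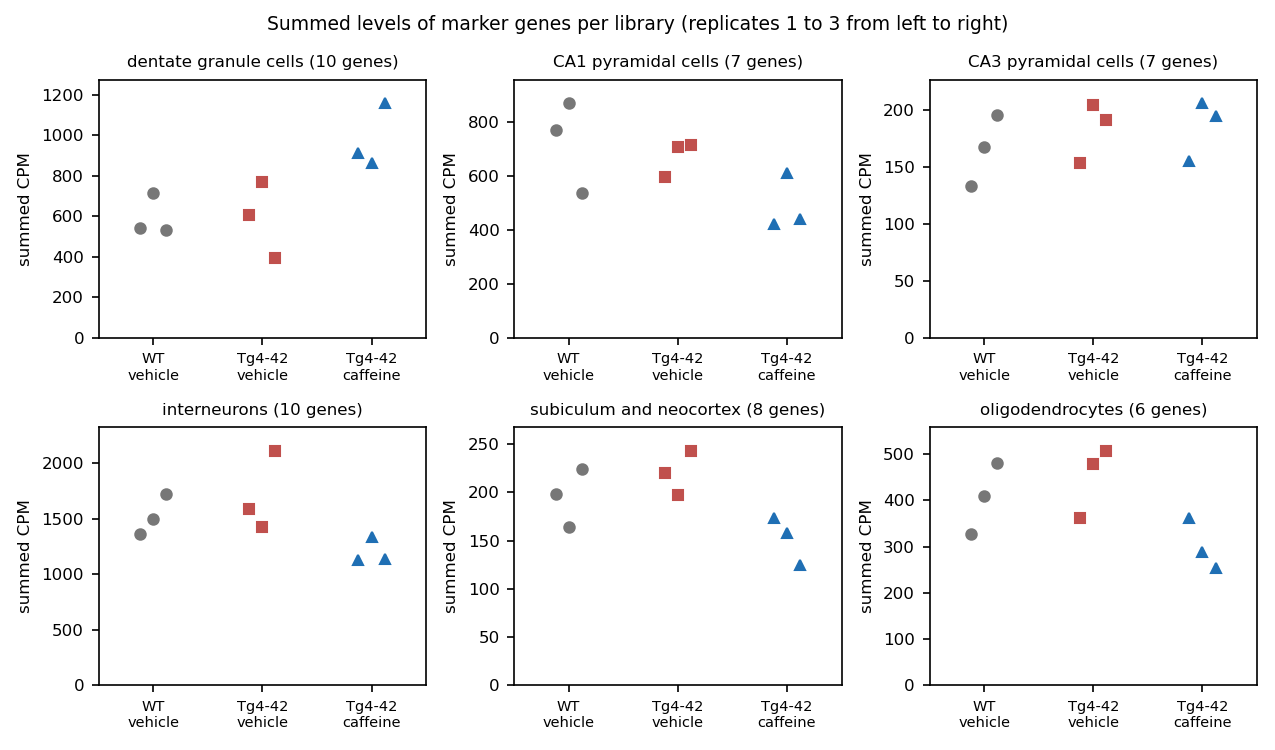
Summed CPM of marker genes of 6 cell types or regions in each library. Dentate granule cell markers stood at 862.9 to 1158 CPM with caffeine, above all vehicle-treated mice, and interneuron markers at 1130 to 1334 CPM, below them.

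Genes that work with potassium channels but carry other symbols were listed beside the members. Of these 21, 17 were tested, 0 were called in any comparison by edgeR, and 13 had negative fold changes with caffeine against vehicle (median -0.16). Of all genes 51.5% were negative. At an unadjusted p under 0.05 there were 4 partners, beside 17% of all genes. Dpp6 and Dpp10 are the transmembrane partners of Kv4 channels. Dpp10 was at 157.0, 131.2 and 220.4 CPM with vehicle and at 112.0, 73.4 and 51.0 CPM with caffeine, without overlap (-1.11 ± 0.32, adjusted p = 0.138, edgeR). Dpp6 (-0.37 ± 0.12, adjusted p = 0.135, edgeR) was likewise not called. Against WT, vehicle-treated Tg4-42 mice had 13 partners above 0, with a median of 0.07.

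Caffeine-treated Tg4-42 mice were also compared with vehicle-treated WT mice, which differ from them by both transgene and caffeine. This comparison shares its libraries with the other 2. No member was called by edgeR (0.415% of all genes were), whereas DESeq2 called 4 of 64 (6.25%, background 3.85%), among them Kcnc2, Kcnf1 and Kcnj6. At an unadjusted p under 0.05, 6 members were higher (7.89%, background 6.78%) and 11 lower (14.5%, background 8.65%). Groups did not overlap for 5 higher (background 9.14%) and 10 lower members (background 9.67%), and the median log2 fold change was -0.13. For the 59 members with a mean count of at least 50, the median was -0.04. Without caffeine replicate 3 the members at an unadjusted p under 0.05 went from 17 to 9 (11.8%, beside 7.62% of all genes), and within lane 6 to 10 (13.3%, beside 7.19%).

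Kcnj6 had the smallest p of this comparison. WT mice had 71.2, 84.0 and 91.6 CPM and lay below all caffeine-treated mice (0.56 ± 0.14, adjusted p = 0.0762, edgeR), with an adjusted p of 0.0102 by DESeq2. Vehicle-treated Tg4-42 mice stood between, with 0.23 ± 0.14 against WT. The log2 fold change of Kcnj6 between caffeine and WT stayed between 0.46 and 0.65 over 13 alternatives.

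Of the Kv3 genes, Kcnc1 had 40.1, 57.5 and 65.1 CPM in WT and 68.2, 68.4 and 95.5 CPM with caffeine, without overlap (0.51 ± 0.17, adjusted p = 0.175, edgeR). Kcnc2, at 201.9, 148.1 and 185.9 CPM in WT, had -0.52 ± 0.15 (adjusted p = 0.121, edgeR). Kcnd3 (Kv4.3), the A-type pore of interneurons and granule cells, was at 84.4, 97.9 and 93.4 CPM in WT and 107.2, 127.4 and 115.6 CPM with caffeine (0.34 ± 0.11, adjusted p = 0.166, edgeR).

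For the remaining members with the smallest p against WT, Kcnip2 had 0.46 ± 0.16, Kcnip3 -0.44 ± 0.13, Kcna6 -0.44 ± 0.15 and Kcnf1 -0.78 ± 0.26, with adjusted p between 0.135 and 0.178 in edgeR. Groups did not overlap for any of these. Kcne2 had -1.42 ± 0.51 on a few reads. Kcnip4 had 0.00 ± 0.12 here.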

How the data were processed

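Nuclei from frozen hippocampi were stained for NeuN and sorted, and RNA was amplified with the SMART-Seq v4 and Nextera XT kits, which do not keep strand. Per the methods, the authors aligned single-end reads to mm10 with STAR and deposited whole counts per gene from featureCounts over exons, without normalization. Symbols, positions and exon lengths were taken from GENCODE M21.

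Counts were tested in R 4.3.3 with edgeR 4.0.16 (filterByExpr with a minimum count of 10, TMM, robust quasi-likelihood fit over all 9 libraries, contrasts, Benjamini-Hochberg over 17361 genes, threshold 0.05). SEs were derived from the F statistic. The scripts were tested on simulated counts. The study used DESeq2, kept here as an alternative (1.42.0) with RLE scaling, no filter, a stricter filter (mean count of 50), a fit of just the 2 groups in question, lane as a covariate, lane 6 only, and each library left out. Library totals of 9342945 to 16376922 set the precision.

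Named were the 10 members with the smallest p per comparison, the member with most counts per subfamily and a list of hippocampal channel genes. This rule does not cover Kcna5, Kcnh3, Kcnh5, Kcnh6, Kcnk2, Kcnk6, Kcnv1, Kcnip1 and Kcnc4, which were picked with their values in view. Individual values of a few genes are not reported here, although counts over the members include them. Members and lists were chosen with earlier results of these data known, and the marker lists of subiculum and neocortex and of choroid plexus were added after seeing the data. Replicates of a group differed by more than sampling noise (chi-square per gene 8.76 to 20.6).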

Additional observations from a re-analysis of the deposited data

How the results depend on the processing

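The number of potassium channel genes called was 0 in vehicle-treated Tg4-42 against WT mice under every alternative. In caffeine against vehicle it was 2 of 66 with DESeq2 (747 of 14595 genes) and 12 of 88 without a filter on low counts (987 of 30820 genes). It was 1 of 74 with only the 2 groups compared (228 of 16861 genes) and 0 to 2 of 76 when a library was left out (0 to 341 genes). In caffeine-treated Tg4-42 against WT mice it was 4 of 64 with DESeq2 (540 of 14018 genes) and 8 of 88 without a filter (860 of 30820 genes). It was 0 to 1 of 76 when a library was left out (16 to 287 genes). The number of all genes called moved from 17 to 74 without a filter in vehicle-treated Tg4-42 against WT mice. In caffeine against vehicle it moved from 153 to 747 with DESeq2, 987 without a filter, 9 with lane as a covariate, 0 within lane 6 and 0 to 341 when a library was left out (0 without Tg4-42 vehicle replicate 3 or caffeine replicate 3, 341 without caffeine replicate 1). In caffeine-treated Tg4-42 against WT mice it moved from 72 to 540, 860, 42 and 17 in the same order, and to between 16 (without caffeine replicate 3) and 287 (without caffeine replicate 1) when a library was left out. The cause was not tested. The medians of the members moved by less than the spread between replicates (0.0944 on the log2 scale), but this spread is wide beside the medians themselves. With the filter at a mean count of 50, the median in caffeine against vehicle went from -0.15 to -0.07. In caffeine-treated Tg4-42 against WT mice it went from -0.13 to -0.04. For 40 fold changes of named members, 493 of 516 alternative values kept direction and side of the threshold, 23 passed the threshold and 0 reversed. These 40 were picked by their p in the same libraries, and the main edgeR fit called none of them. Keeping direction and side was thus likely from the start, and the count is no independent check. With the longest transcript, 14 of 36 levels per kb moved by more than the spread between replicates. Replicate numbers used here follow the order of the samples and only name the libraries. The labels give no replicate numbers by which mice of different groups could be paired, so no paired analysis was possible. With 3 libraries a group, small differences were not detectable, and Kcne2, Kcnj12 and Kcnj16 rested on few reads.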
